A study of Homo sapiens with 4 samples.

Results

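Ferritin and iron handling genes were examined in MV4-11 cells, a human acute myeloid leukemia cell line. The set holds 10 genes chosen by name: the ferritin subunits FTL and FTH1, the transferrin receptor TFRC, the iron transporters SLC11A1, SLC11A2 and SLC40A1, the ferritin receptor NCOA4, the heme-degrading enzyme HMOX1, and the iron regulatory proteins ACO1 and IREB2. The table held 23 RefSeq rows for 9 of these genes, out of 16490 genes and 28581 rows with values, and SLC40A1 was not analysed here. FPKM, a read-fragment level scaled to transcript length and sequencing total, was summed over the rows of each gene in each library. Cells stably carrying sh-CEBPG#3, a short hairpin RNA against the transcription factor CEBPG, were compared with cells carrying the control sh-NC, with 2 libraries in each group. The CEBPG hairpin was carried by the pLKO.1-puro lentiviral vector, infected cells were selected with puromycin, and CEBPG was targeted with 1 hairpin in these libraries. The vector and the sequence of the sh-NC control are not given in the sources used here. Separate infections or cultures behind the 2 libraries of each group are not stated in the sources used here, so the p-values measure only the spread between these samples, which may be technical.

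Cells take up iron mainly as transferrin bound to TFRC, and the metal leaves the endosome through SLC11A2 (DMT1). SLC11A1 (NRAMP1) is a related transporter of phagocyte lysosomes. Iron that is not used is stored in ferritin, a shell of heavy (FTH1) and light (FTL) chains, in which the heavy chain oxidises the iron. NCOA4 carries ferritin to the lysosome for breakdown, HMOX1 releases iron from heme, and SLC40A1 (ferroportin) exports it. When iron is scarce, ACO1 (IRP1) and IREB2 (IRP2) bind iron-responsive elements, short RNA hairpins that block translation from a 5' UTR and protect the transcript from decay in a 3' UTR. Ferritin protein is therefore controlled largely after transcription, and transcript levels alone were measured here.

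Matches to the iron-responsive element in the ferritin subunits and in TFRC are shown because this element is the shared regulatory sequence of these genes. Each window is given 5' to 3' as DNA letters of the transcript, with the loop CAGTG in capitals, from the GENCODE transcripts on GRCh38. The first lies in the 5' UTR of FTH1 at chr11:61967574-61967602 on the minus strand, the next in the 5' UTR of FTL at chr19:48965335-48965363 on the plus strand, and the others in the 3' UTR of TFRC on the minus strand of chromosome 3, the most 5' of them at chr3:196050979-196051007 and the most 3' at chr3:196050463-196050491.
FTH1: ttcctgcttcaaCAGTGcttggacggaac
FTL: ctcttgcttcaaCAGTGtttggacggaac
TFRC most 5': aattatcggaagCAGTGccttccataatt
TFRC most 3': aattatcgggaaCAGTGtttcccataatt
The FTH1 and FTL windows were identical at 26 of 29 bases and differed by T1C, C4T and C18T, with the FTH1 base first, the FTL base last and positions counted from 1 at the 5' end. The TFRC 3' UTR held 4 matches in all, of which the most 5' and the most 3' are shown. The search asked for a C, then 5 bases, the loop with 1 further base, and 5 bases able to pair with the 5 before the loop. Of 20046 canonical protein-coding transcripts, 0.0948% held such a match in the 5' UTR and 0.609% in the 3' UTR. Such a match was not found in the UTRs of HMOX1, NCOA4, ACO1, IREB2, SLC11A1 or SLC11A2. The search allowed no other loop and no unpaired base among these 5, so elements of another form would be missed. A missing match therefore does not show that a gene lacks an iron-responsive element.

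The FPKM of a library summed to between 364353 and 389766, and read depth is unknown because the values carry no counts. The targeted CEBPG transcript lay at 30.4 and 33.6 FPKM in sh-NC cells and at 19.2 and 17.1 FPKM in sh-CEBPG#3 cells, so that 56.8% of its level remained (limma with Benjamini-Hochberg adjustment, adjusted p = 8.88e-05). Pearson's r across genes was 0.993 and 0.994 within groups and between 0.962 and 0.964 across them. All 6 MV4-11 markers had rows and summed to 153 and 168 FPKM in sh-NC and to 157 and 143 FPKM in sh-CEBPG#3, with FLT3, which did not pass the test (adjusted p = 0.161 by limma), as the largest part. Of these markers, MEIS1 fell to 48.0%, KMT2A to 65.4% and HOXA9 to 77.6% of their sh-NC level, while CD33 rose, with a log2 fold change of 0.37. No row was listed for the 6 erythroid or the 2 T cell markers, and the B cell markers summed to at most 1.52 FPKM in any library. The 1 epithelial marker with a row, KRT18, was at 9.77 and 10.6 FPKM in sh-NC and at 9.75 and 8.57 FPKM in sh-CEBPG#3.

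Both ferritin subunits rose in sh-CEBPG#3 cells, and the heavy chain rose more than the light chain. FTL (chromosome 19, 48965309 to 48966879, plus strand, 4 exons) was at 1418 and 1471 FPKM in sh-NC and at 3143 and 2971 FPKM in sh-CEBPG#3. Both sh-CEBPG#3 libraries lay above both sh-NC libraries. The mean went from 1444 ± 37.6 to 3057 ± 122 FPKM (SD, n = 2), a 2.12-fold difference, with a log2 fold change on the log2(FPKM + 1) scale of 1.08 (SE 0.07, 95% confidence interval 0.92 to 1.24, adjusted p = 2.81e-06 by limma). In bulk RNA, more transcript per cell and more cells with a high level cannot be told apart. By level, FTL ranked 48 and 49 among all genes in sh-NC and 10 and 12 in sh-CEBPG#3.

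FTH1 (chromosome 11, 61959718 to 61967634, minus strand, 4 exons) was at 249 and 275 FPKM in sh-NC and at 1097 and 1047 FPKM in sh-CEBPG#3. The groups were far apart relative to the spread within them. The mean went from 262 ± 18.6 to 1072 ± 35.7 FPKM (SD, n = 2), a 4.09-fold difference, and the log2 fold change was 2.03 (SE 0.07, 95% confidence interval 1.86 to 2.20, adjusted p = 4.79e-08 by limma). BEST1, a protein-coding gene that overlaps the FTH1 locus on the opposite strand, had 1.13 and 1.02 FPKM in sh-NC and 1.47 and 1.18 FPKM in sh-CEBPG#3 (adjusted p = 0.343). GENCODE names 25 FTH1 and 16 FTL pseudogenes, and how reads shared with them were counted is not given in the sources used here. FTH1P3, the ferritin pseudogene with a row, had at most 0.451 FPKM in any library.

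**Figure D1:**
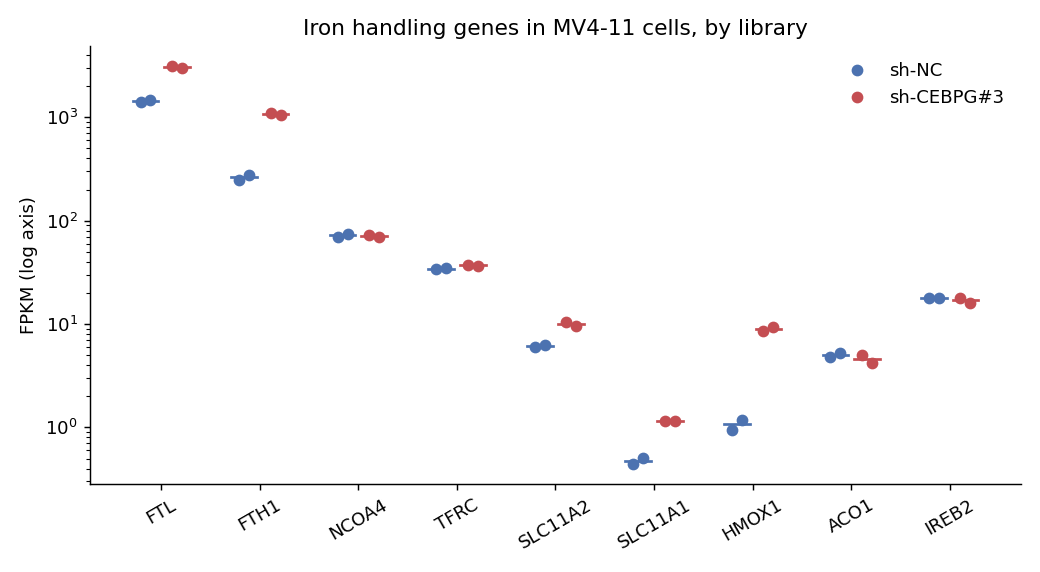
FPKM of the 9 iron genes with rows in each of the 4 libraries, on a log axis, with a point per library and a bar at each group mean. FTL, FTH1 and HMOX1 stand higher in both sh-CEBPG#3 libraries, while the points of NCOA4, IREB2 and ACO1 overlap between groups.

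The unequal rise changed the balance of the subunit transcripts. FTL over FTH1 was 5.69 and 5.34 in sh-NC cells against 2.86 and 2.84 in sh-CEBPG#3 cells, a mean of 5.52 ± 0.249 against 2.85 ± 0.0187 (SD, n = 2). On the log2 scale the ratio differed by -0.95 between the groups, with p = 0.33 by an exact two-sided permutation test, the smallest p that 2 against 2 libraries allow. The ratio is formed within a library and so does not depend on its scaling. FTL and FTH1 together held 0.457% and 0.450% of all FPKM in sh-NC, and 1.09% and 1.07% in sh-CEBPG#3.

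TFRC did not pass the test. TFRC (chromosome 3, 196012511 to 196082153, minus strand, 19 exons) was at 33.7 and 35.1 FPKM in sh-NC and at 37.6 and 36.1 FPKM in sh-CEBPG#3. The groups did not overlap, but the gap between them was narrower than the gap between the libraries of either group. The log2 fold change was 0.10 (SE 0.07, 95% confidence interval -0.07 to 0.26, adjusted p = 0.319 by limma). Ferritin transcript over TFRC transcript, (FTL + FTH1)/TFRC, was accordingly 49.4 and 49.8 in sh-NC and 113 and 111 in sh-CEBPG#3. The log2 ratio of TFRC to the ferritin sum differed by -1.18 (exact two-sided permutation test, p = 0.33).

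**Figure D2:**
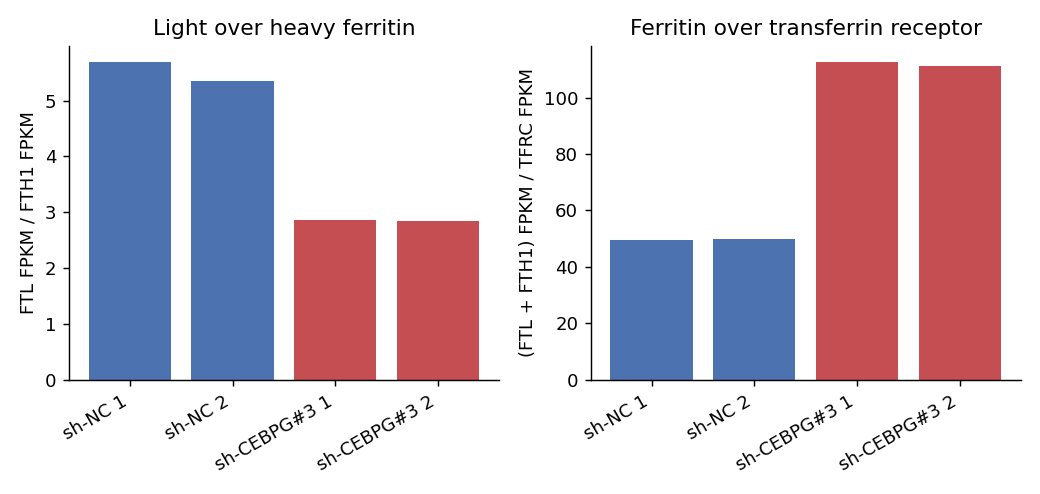
Bars give FTL FPKM over FTH1 FPKM (left) and the FTL and FTH1 sum over TFRC FPKM (right), with a bar per library. The first ratio is 5.69 and 5.34 in sh-NC against 2.86 and 2.84 in sh-CEBPG#3, and the second is 49.4 and 49.8 against 113 and 111.

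Of the SLC11 transporters, SLC11A2 rose, and SLC11A1 was too low in sh-NC cells for its test to count as support. SLC11A2 (chromosome 12, 50979401 to 51028566, minus strand, 16 exons) was at 5.94 and 6.31 FPKM in sh-NC and at 10.4 and 9.65 FPKM in sh-CEBPG#3, without overlap. The log2 fold change was 0.63 (SE 0.09, 95% confidence interval 0.43 to 0.83, adjusted p = 0.000396 by limma). SLC11A1 (chromosome 2, 218382029 to 218396894, plus strand, 15 exons) was at 0.446 and 0.503 FPKM in sh-NC and at 1.15 and 1.14 FPKM in sh-CEBPG#3. It met the 0.5 FPKM filter only through its level in sh-CEBPG#3 cells, so its values are given as a description. The log2 fold change of SLC11A1 was 0.54 (SE 0.13, 95% confidence interval 0.25 to 0.84, adjusted p = 0.00827 by limma), and it understates the 2.42-fold difference in FPKM because of the pseudocount. Neither transporter passed in a separate limma fit over all RefSeq transcripts. The adjusted p there was 0.0884 for the most abundant SLC11A2 transcript and 0.148 for SLC11A1. SLC11A1 has 1 RefSeq row, so its log2 fold change was the same 0.54 in both fits. In that fit 8.24% of transcripts passed, against 42.2% of genes in the main fit.

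HMOX1 had the largest log2 fold change of the 9 genes. HMOX1 (chromosome 22, 35380361 to 35394214, plus strand, 5 exons) was at 0.948 and 1.19 FPKM in sh-NC and at 8.60 and 9.33 FPKM in sh-CEBPG#3, an 8.38-fold difference of the means. Both sh-CEBPG#3 libraries lay far above both sh-NC libraries. The log2 fold change was 2.27 (SE 0.11, 95% confidence interval 2.03 to 2.51, adjusted p = 2.87e-07 by limma), and it was 2.96 with a pseudocount of 0.1 FPKM.

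The ferritin receptor and the iron regulatory proteins did not pass the test. NCOA4 (chromosome 10, 46005088 to 46030623, minus strand, 10 exons) was at 70.2 and 74.0 FPKM in sh-NC and at 72.5 and 68.8 FPKM in sh-CEBPG#3, with a log2 fold change of -0.03 (95% confidence interval -0.19 to 0.13, adjusted p = 0.778). IREB2 (chromosome 15, 78437431 to 78501453, plus strand, 22 exons) was at 17.7 and 18.0 FPKM against 17.9 and 16.1 FPKM, with a log2 fold change of -0.07 (95% confidence interval -0.26 to 0.11, adjusted p = 0.514). ACO1 (chromosome 9, 32384603 to 32454769, plus strand, 21 exons) was at 4.77 and 5.29 FPKM against 4.996 and 4.24 FPKM, with a log2 fold change of -0.10 (95% confidence interval -0.34 to 0.13, adjusted p = 0.463). The groups overlapped for each of these genes, and no interval reached the lower bound of either ferritin subunit's.

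Of the 9 genes tested, 8 met the filter in the sh-NC libraries alone. Among these 8, 4 were higher in sh-CEBPG#3, where 18.5% of the 12142 genes tested were, and 0 were lower, where 23.8% were; the count of lower genes at an unadjusted p under 0.05 was also 0. In either direction 42.2% of all genes tested passed, so a call by itself was common in this comparison. The shares of all genes include those that met the filter only through sh-CEBPG#3 cells. The groups did not overlap for 5 of the 8 genes, against 71.7% of all genes. FTL, FTH1 and HMOX1 also passed the size of change the study used, a log2 change above 1, here with an unadjusted p under 0.05, which 2.36% of all genes passed upward. The median log2 fold change of all genes was -0.04. The members were chosen with earlier results of these data known, so their counts are a description.

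**Figure D3:**
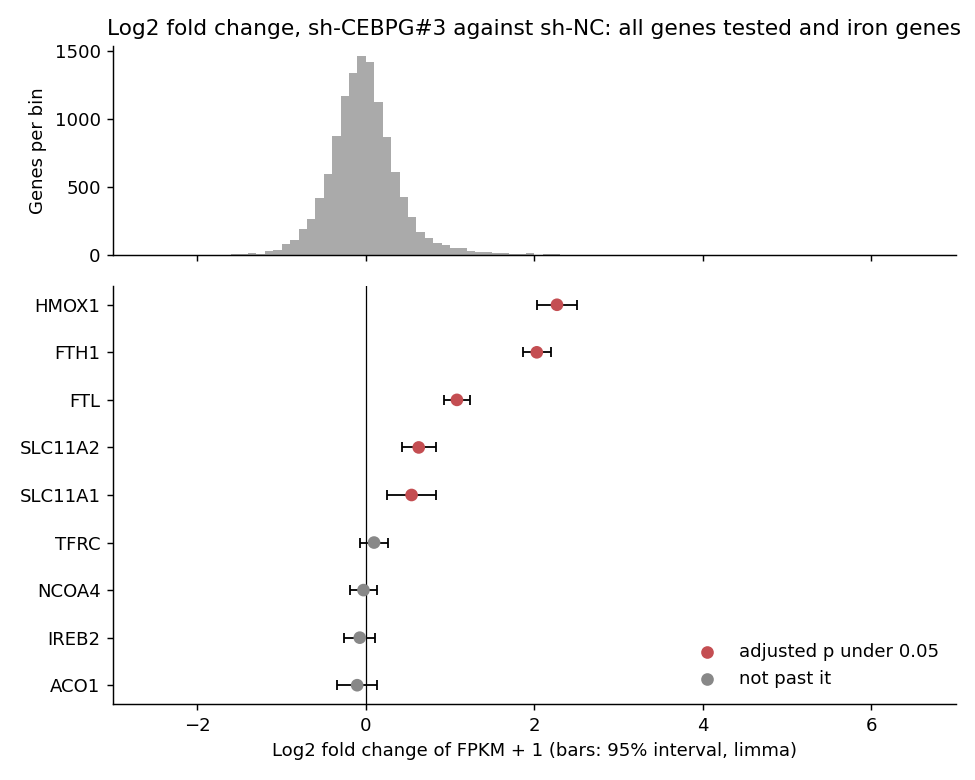
Log2 fold change of each iron gene on the log2(FPKM + 1) scale, sh-CEBPG#3 over sh-NC, with 95% confidence intervals from limma, beside the number of genes per bin of log2 fold change over all genes tested. HMOX1 at 2.27, FTH1 at 2.03 and FTL at 1.08 lie far from 0, SLC11A2 and SLC11A1 lie at 0.63 and 0.54, and the intervals of the other 4 genes cross 0.

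FPKM is a level per transcript length, so the genes can be ordered by it. In sh-NC cells the order was FTL, FTH1, NCOA4, TFRC, IREB2, SLC11A2, ACO1, HMOX1 and SLC11A1, and no neighbours in it overlapped. In sh-CEBPG#3 cells HMOX1 stood above ACO1 and next to SLC11A2, at 8.96 ± 0.511 against 10.004 ± 0.504 FPKM (SD, n = 2), 2 neighbours that differed little beyond their spread. The places of the other genes were the same in both groups.

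The gene sums of TFRC, NCOA4 and SLC11A2 are made of several RefSeq transcripts, whose FPKM are estimates of how shared reads divide. TFRC transcript NM_001128148 held 96.6% and 98.1% of the gene's FPKM in sh-NC, and 65.3% and 86.2% in sh-CEBPG#3. NM_003234 went the other way, with 0.817 and 0.212 FPKM in sh-NC and 10.5 and 4.47 FPKM in sh-CEBPG#3. The sh-CEBPG#3 libraries differed from each other in this split more than the sh-NC libraries did. The log2 fold change of NM_003234 was 2.42 (95% confidence interval 1.21 to 3.63, adjusted p = 0.0536 by limma over all transcripts), and that of NM_001128148 was -0.27 (adjusted p = 0.272). NCOA4 transcript NM_005437 had 2.62 and 2.53 FPKM in sh-NC and 8.67 and 3.29 FPKM in sh-CEBPG#3 (adjusted p = 0.277). For SLC11A2, NM_001174127 had 2.70 and 2.33 FPKM against 4.44 and 3.99 FPKM, and NM_000617 had 0.784 and 0.771 FPKM against 2.07 and 2.65 FPKM (adjusted p = 0.0596). Of the iron genes' transcripts, those of FTH1 (adjusted p = 0.00602), HMOX1 (0.0117) and FTL (0.0119) passed, where 8.24% of all transcripts tested did.

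**Figure D4:**
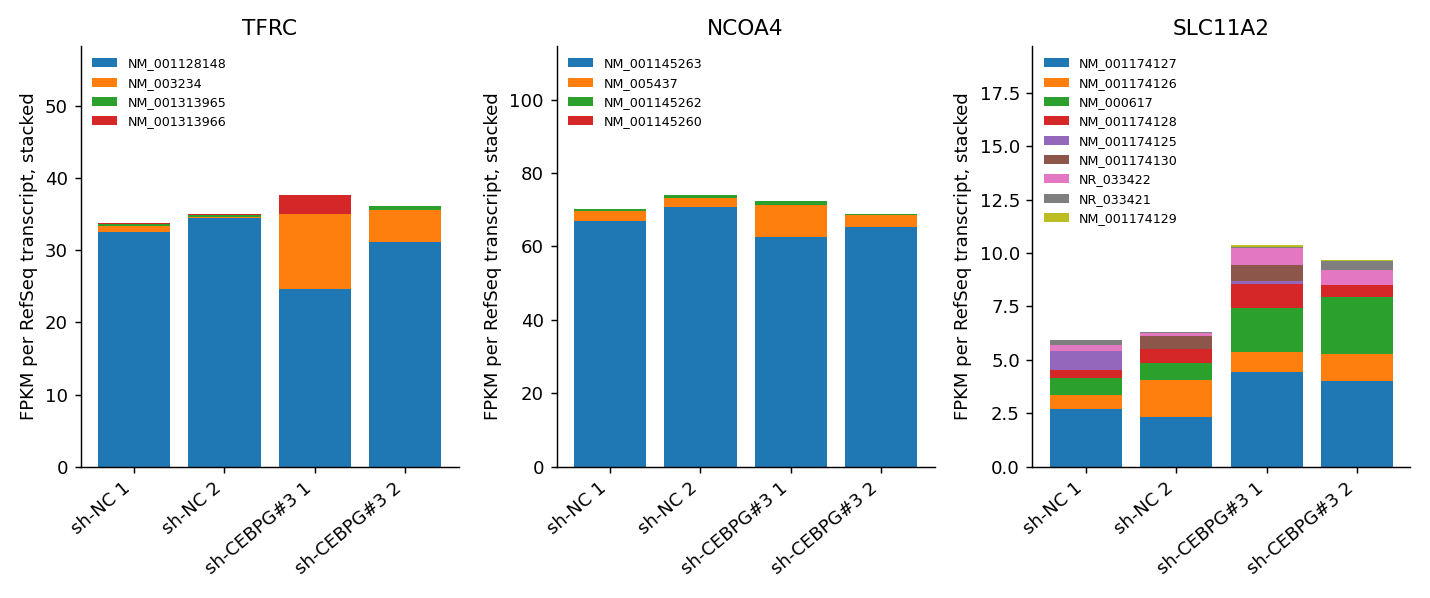
FPKM of the RefSeq transcripts of TFRC, NCOA4 and SLC11A2 in each library, stacked to the gene sum. The TFRC sum stays between 33.7 and 37.6 FPKM while NM_003234 takes 27.9% and 12.4% of it in the sh-CEBPG#3 libraries.

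Promoters from RefSeq (GRCh38.p14, 250 bases before to 50 after the start) were searched on both strands for TGACNNNGC, the core of the antioxidant response element through which NRF2 and BACH1 act, for TGATGCAA, a core element bound by CEBP and ATF dimers, and for GAAANNGAA, an interferon response core. Of 35116 promoters, 13.3%, 0.866% and 8.11% held them. These shares are per promoter. NCOA4 and IREB2 had 2 promoters each and SLC11A2 had 4, so these genes had more chances of a match. The NCOA4 window at chr10:46019958-46019986 on the minus strand held the first core, and the IREB2 window at chr15:78438102-78438130 on the plus strand held the last on its reverse strand, with the match in capitals.
NCOA4: ctctgaaagcTGACAGTGCtctaactgcg
IREB2: gctccgccccTTCCCTTTCtttgttttcc
SLC11A2 also held the last core, and none of the 3 was in the windows of FTL, TFRC, SLC11A1 or ACO1. The promoters of FTH1 and HMOX1 were not searched here. A match of letters is a description and not a binding site. Sequence outside these windows was not searched, so a missing match does not show that a gene lacks such an element.

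Genes of the wider iron lists were called at shares near those of all genes. Apart from the members, 67 further iron genes were tested, of which 14 (20.9%) were higher, 18 (26.9%) lower and 35 not called, with a median log2 fold change of -0.08, beside 18.5% higher and 23.8% lower among all genes tested. Among storage genes, PCBP1, a chaperone that delivers iron to ferritin, fell from 158 and 182 FPKM to 114 and 110 FPKM (log2 fold change -0.60, adjusted p = 0.000295 by limma). Of 9 uptake and endosomal release genes tested, 5 rose (3 without sh-NC replicate 1 or sh-CEBPG#3 replicate 1) and 2 fell, beside 18.5% and 23.8% of all genes. Among the 5 is SLC11A1, which met the filter only through sh-CEBPG#3 cells. Those that fell were the metal importers SLC39A8 (16.3 and 16.2 to 10.5 and 10.03 FPKM) and SLC39A14 (23.8 and 23.8 to 16.4 and 14.8 FPKM). No export and oxidation gene passed the filter.

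Of 14 genes of the IRP system and its regulators, 5 rose and 2 fell (1 without sh-NC replicate 2), beside the same 18.5% and 23.8% of all genes. FBXL5, the iron-sensing ligase subunit that marks IREB2 for degradation, rose from 5.96 and 6.79 to 14.2 and 12.4 FPKM (log2 fold change 0.95, adjusted p = 5.57e-05). NFE2L2, which encodes NRF2, rose from 15.0 and 15.1 to 28.8 and 26.1 FPKM, and BACH1, the heme-sensing repressor of HMOX1 and ferritin genes, rose from 5.20 and 5.56 to 9.03 and 7.80 FPKM. Of the 10 NRF2 and BACH1 targets outside iron handling, 7 were higher and 0 lower (0 at an unadjusted p under 0.05), with a median log2 fold change of 0.46, where 18.5% of all genes were higher and 23.8% lower. Among them the quinone reductase NQO1 rose from 9.80 and 11.5 to 29.2 and 30.6 FPKM (log2 fold change 1.41, adjusted p = 2.43e-06), and SRXN1 rose from 11.4 and 12.0 to 26.2 and 26.6 FPKM. The list of targets was chosen with earlier results of these data known, so its count is a description. Whether NRF2 or BACH1 had a part in the ferritin and HMOX1 changes was not tested.

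Genes of heme synthesis and transport were called in both directions. ALAS1, the rate-limiting enzyme of heme synthesis, rose from 28.5 and 29.7 to 71.8 and 69.1 FPKM (log2 fold change 1.25, adjusted p = 1.15e-06). The mitochondrial transporters ABCB10 (48.6 and 51.6 to 25.1 and 23.7 FPKM) and SLC25A38 (10.4 and 11.1 to 6.45 and 6.27 FPKM) fell, as did ALAD, the enzyme after ALAS1, from 12.0 and 14.3 to 8.51 and 8.46 FPKM. Of 11 heme synthesis genes, 3 rose, 4 fell and 4 were not called, beside 18.5% higher and 23.8% lower among all genes. The lysosomal heme transporter SLC48A1 rose from 3.94 and 4.43 to 8.02 and 7.61 FPKM, and FLVCR2 fell from 7.48 and 6.84 to 2.96 and 2.85 FPKM. Of 20 mitochondrial iron and iron-sulfur cluster genes, 1 rose, 2 fell and 17 were not called, beside the same 18.5% and 23.8% of all genes. Of 11 cytosolic iron-sulfur assembly genes, 1 rose and 4 fell, where 18.5% of all genes were higher and 23.8% lower. Among those that fell were CIAO1 (23.0 and 24.2 to 15.7 and 15.1 FPKM) and NDOR1 (10.9 and 11.7 to 8.31 and 7.07 FPKM).

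**Figure D5:**
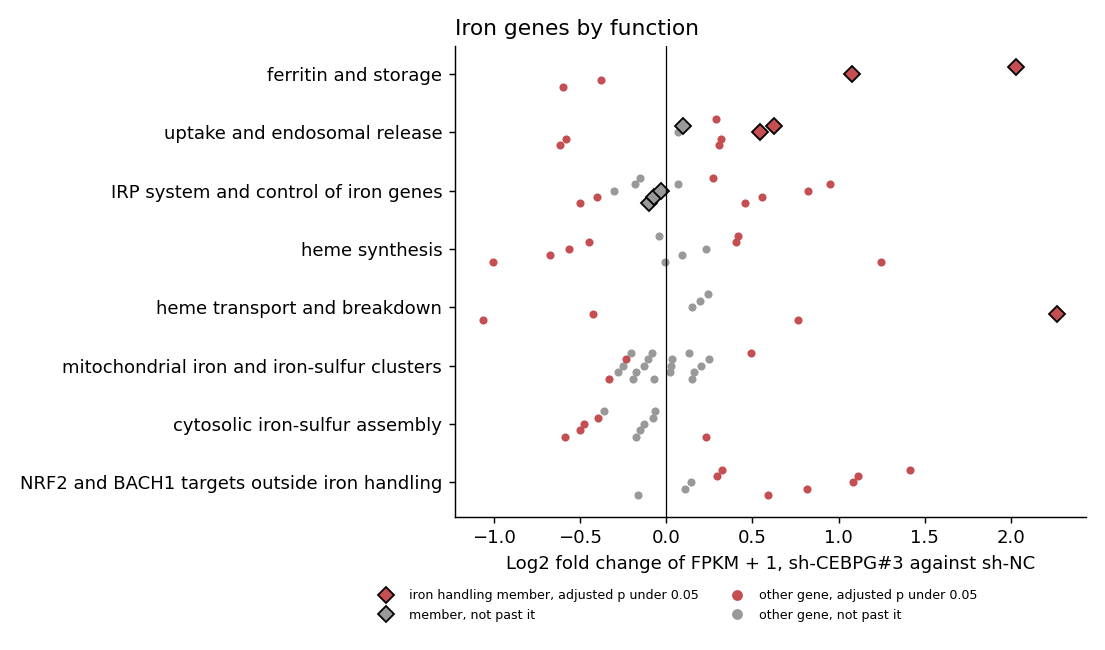
Log2 fold change of each tested gene of the wider iron lists, sh-CEBPG#3 over sh-NC, a point per gene grouped by list, with called genes marked. Called genes lie on both sides of 0 in each list plotted except the NRF2 and BACH1 targets, of which 7 of 10 were called higher.

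Some monocyte and macrophage markers rose beside ferritin. Of 10 such markers 9 had rows and 5 were tested, of which LYZ, CD68 and CSF1R rose, where 18.5% of all genes did. ITGAM (log2 fold change 0.09, adjusted p = 0.451 by limma) and MARCO (0.36, adjusted p = 0.0532) did not pass. Their sum went from 624 and 678 FPKM in sh-NC to 3260 and 3107 FPKM in sh-CEBPG#3, most of it LYZ, at 567 and 610 against 3126 and 2982 FPKM. CD14 had 0.187 and 0 FPKM against 1.09 and 0.697 FPKM, and CD163 and FCGR3A stayed at or under 0.244 FPKM in every library. The part of these markers in the ferritin, HMOX1 and SLC11A1 results was not tested.

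The genes with the most similar pattern to each ferritin subunit were found by the Euclidean distance of log2(FPKM + 1), taken from the sh-NC mean, over the 4 libraries, among 5013 genes averaging 10 FPKM or more. For FTL they were CTSB (distance 0.0497), a lysosomal protease, MS4A7 (0.0686) and FNDC3A (0.0695). For FTH1 they were CHI3L1 (0.0266), IFITM3 (0.103) and NCF1C (0.129), the last a pseudogene that shares reads with near-identical copies and is therefore uncertain. With 4 libraries in 2 groups, such a distance is set mostly by the size of the group difference.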

How the data were processed

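RNA was sequenced from 4 MV4-11 libraries, 2 with sh-NC and 2 with sh-CEBPG#3, grouped by the sample titles. Per the methods, reads were filtered before alignment with HISAT (HISAT2 2.0.5 and hg38 in the submitters' processing notes), and the authors deposited FPKM for each RefSeq transcript. The annotation version and the FPKM program are not given in the sources used here, nor is the use of strand. The members and gene lists were chosen with earlier results of these data known.

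FPKM was summed by gene symbol, and 164 transcripts lacking a symbol were kept as single entries. Genes averaging 0.5 FPKM or more, 12142 in all, were tested on log2(FPKM + 1) with limma 3.58.1 in R 4.3.3 (lmFit, eBayes with a trend, no block) and Benjamini-Hochberg adjustment over all of them. Since the values are FPKM, no count test was run. The procedure was also run on simulated data, whose outcome is not reported here and is not used as support. From the wider lists, the genes named have an adjusted p under 0.05, a log2 change of at least 0.5 and a mean of at least 5 FPKM, at most 4 a list. A result for 1 gene under this rule is not reported here. BEST1 was named after its values were seen. Sequences came from GENCODE v44 and RefSeq, read with Python 3.11.15. A planned comparison of protein sequences was not made. The alternatives were other pseudocounts, filters and normalizations, a replicate block, no trend, single transcripts and each library left out.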

Additional observations from a re-analysis of the deposited data

How the results depend on the processing

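FTL, FTH1 and HMOX1 kept their direction and their call under every alternative run. With each library left out in turn, the lone library being assumed to vary like the other group, their log2 fold changes ranged from 1.04 to 1.12, 1.96 to 2.10 and 2.18 to 2.35. NCOA4, which was not called, ranged down to -0.066 and turned to 0.0087 without sh-NC replicate 2 and to 0.0086 without sh-CEBPG#3 replicate 2. SLC11A1 gave no value with a mean of at least 1 FPKM. The most abundant transcript for each gene was read from a fit over all RefSeq transcripts. There 8.24% of all transcripts passed, against 42.2% of genes in the main fit. In this setting TFRC turned to -0.27 (adjusted p = 0.272 by limma) and 3 members were higher. The higher counts became 0 for uptake (4 at an unadjusted p under 0.05 by limma), 2 for the IRP system and 1 for heme synthesis. They became 0 for cytosolic assembly (0 unadjusted) and 3 for NRF2 and BACH1 targets. The lower counts there became 1 for storage, 1 for uptake, and 0 for the IRP system, heme transport and mitochondrial iron (2, 0 and 1 unadjusted). With equal totals, 4 IRP system, 4 mitochondrial and 7 cytosolic genes were lower and 2 mitochondrial genes higher, and 3 were higher with quantile normalization. Without a filter, 1 heme transport gene and 0 mitochondrial genes were lower (3 mitochondrial genes unadjusted). The count of cytosolic genes higher was 0 (1 unadjusted) without a filter, and the same without a trend. The cause of these shifts was not tested.

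The study states no pairing, so the replicate numbers were not taken as pairs. Across genes, the deviations of same-numbered libraries had a correlation of 0.061, which by itself does not show that they were unpaired. With a replicate block, FTL was at 1.08, 5 members were higher (SLC11A1, which met the filter only through sh-CEBPG#3, among them), 1 mitochondrial gene was lower and 0 cytosolic genes were higher (0 unadjusted). Leaving out each library, the counts ranged from 3 (without replicate 1 of either group) to 5 for uptake higher, 1 (without sh-NC replicate 2) to 3 for the IRP system lower, and 1 (without sh-NC replicate 2) to 2 for heme transport lower. For mitochondrial genes they ranged from 1 to 4 (without sh-NC replicate 2; 2 without sh-NC replicate 1) higher and from 0 (without replicate 2 of either group; 1 without sh-CEBPG#3 replicate 1) to 5 (without sh-NC replicate 1) lower. For cytosolic genes they ranged from 0 (when any library other than sh-NC replicate 2 was left out) to 1 higher and from 4 to 7 (without sh-NC replicate 1) lower. Depth is unknown, so the counting error of low levels such as those of SLC11A1 could not be estimated here.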
